A study of Mus musculus with 2 samples.

Results

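The miR-181 family was described here through the 4 mature miRNAs of its 5p arms, miR-181a-5p, miR-181b-5p, miR-181c-5p and miR-181d-5p. They were taken as the 4 rows of the deposited table that carry the miRBase accessions MIMAT0000210, MIMAT0000673, MIMAT0000674 and MIMAT0004324, of 739 rows in all. The question was which miRNAs separate CD4+ helper T cells of 2 sites. One array held RNA from splenic CD4+ T cells and the other RNA from CD4+ T cells of the lamina propria, the connective layer below the gut epithelium. Both groups were female C57BL/6 mice, 10 weeks old, of the genotype IL-10 +/-, so spleen and gut cells alike came from animals with a single working copy of the gene for the anti-inflammatory cytokine interleukin 10. CD4+ T cells were purified on magnetic beads (MACS) in both cases, and collagenase digestion is recorded for lamina propria lymphocytes only, so tissue and digestion cannot be told apart. No source used here gives the number of mice behind each array. Each group is 1 array (n = 1), so no value has an error, no test of the tissue difference was possible and no p-value is given.

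MicroRNAs are short RNAs that pair through their seed, the bases near the 5′ end, with messenger RNAs and lower their translation or stability. In the mouse, miR-181a is abundant in immature thymocytes and declines as T cells mature. It is known for setting the sensitivity of the T cell receptor, because it represses several phosphatases that dampen receptor signalling, among them Ptpn22, Ptpn11 (SHP-2), Dusp5 and Dusp6. The Mir181a-1 and Mir181b-1 genes form a cluster that is needed in mice for the development of natural killer T cells, and miR-181d has been studied in the stressed mouse thymus.

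The 4 mature sequences are shown because they carry one and the same seed and differ at few bases, which bears on how the 4 probes are read. They are RefSeq sequences, all 4 members matched by name, and the capitals mark the seed, bases 2 to 8.
miR-181a-5p: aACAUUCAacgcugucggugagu
miR-181b-5p: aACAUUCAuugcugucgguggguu
miR-181c-5p: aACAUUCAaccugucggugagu
miR-181d-5p: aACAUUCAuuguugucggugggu
All 4 were identical over the first 8 bases. Of the 1679 mature mouse miRNA names in the RefSeq table, these 4 alone carried the seed ACAUUCA. Positions below are counted from 1 at the 5′ end of the first-named miRNA. From miR-181a-5p to miR-181b-5p the substitutions were A9U, C10U and A21G, and miR-181b-5p has 1 further base at its 3′ end. miR-181c-5p had no substitution against miR-181a-5p and lacked 1 base, at position 11. miR-181b-5p and miR-181d-5p were separated by the substitution C12U and by the 1 base at the 3′ end. No source used here gives the probe sequences, and whether a probe also captures the other members was not tested.

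The 4 miRNAs come from 6 genes, in RefSeq coordinates of GRCm38.p6. The mature miR-181a-5p lies at chr1:137966468-137966490 in Mir181a-1 and at chr2:38852741-38852763 in Mir181a-2, both on the plus strand. The mature miR-181b-5p lies at chr1:137966650-137966673 in Mir181b-1 and at chr2:38853845-38853868 in Mir181b-2, also on the plus strand. The hairpins of Mir181a-1 and Mir181b-1 are 97 bases apart and those of Mir181a-2 and Mir181b-2 are 1019 bases apart. miR-181c-5p at chr8:84178924-84178945 and miR-181d-5p at chr8:84178759-84178781 are on the minus strand with 142 bases between them. The chromosome 2 pair lies within the spans of Nr6a1, which encodes an orphan nuclear receptor, and of the long non-coding RNA gene Nr6a1os, while no other annotated gene spans the remaining 4. Both miR-181a hairpins are shown, with the mature 5p arm in capitals, because the arm is the same in both while the flanks differ.
Mir181a-1: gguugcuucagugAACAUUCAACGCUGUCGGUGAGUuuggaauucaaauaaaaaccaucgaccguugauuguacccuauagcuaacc
Mir181a-2: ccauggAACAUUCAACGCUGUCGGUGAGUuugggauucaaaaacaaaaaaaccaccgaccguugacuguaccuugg
A measurement of the mature arm therefore sums over both genes, and the same holds for miR-181b-5p. These arrays cannot say which cluster a signal came from.

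The deposited values are linear intensities in arbitrary units, with a blank where no value is listed. Spleen had 516 listed rows and lamina propria 378, and 353 rows were listed on both arrays. The lowest listed value was 1.39 in spleen and 2.88 in lamina propria, and the summed intensity was 136232 and 182481. The sources used here paired no other row of the table with a miRNA name. The CD4+ T cell label and the presence of other cell types were therefore not checked against marker miRNAs.

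The 3 members measured on both arrays were all lower in lamina propria than in splenic CD4+ T cells, and miR-181a-5p differed most. All 4 members were listed in spleen and 3 of them in lamina propria. miR-181a-5p was 18.8-fold lower in lamina propria, miR-181b-5p 2.94-fold lower and miR-181c-5p 1.95-fold lower, while miR-181d-5p was listed in spleen alone. So 2 of the 3 members measured on both arrays were past 2-fold in this direction, against 25.8% of the 353 shared rows. Of those rows, 16.1% were past 2-fold the other way. Among the 196 shared rows at least as bright in spleen as miR-181c-5p, the dimmest member, these shares were 44.4% and 9.69%. On the log2 scale (lamina propria over spleen) the 3 members had a median ratio of -1.56. The median was 0.0093 over all shared rows and -0.80 over those 196. In such bulk samples, fewer cells that carry a miRNA and less of it per cell cannot be told apart.

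miR-181a-5p, the member known for tuning T cell receptor sensitivity, was listed at 187.54 in spleen and at 9.97 in lamina propria. The spleen value stood 135 times above the lowest value listed on its array and the lamina propria value 3.46 times above. The log2 ratio was -4.23. It was the lowest ratio among all 353 shared rows. The next lowest row was 9.97-fold lower in lamina propria, which leaves a 1.89-fold gap between them. No listed lamina propria value was under 2.88, so rows dim in spleen could not have reached an 18.8-fold difference. The next lowest row, at 39.87 in spleen, was among these. Rows blank in lamina propria have no ratio and stand outside this ranking. Besides miR-181d-5p, they include 6 rows at least as bright in spleen as that member. Within each array no scaling between tissues enters. There miR-181a-5p ranked 56th from the brightest of 516 listed rows in spleen and 146th of 378 in lamina propria. As percentiles these ranks were 89.1 and 61.4. The arrays list different rows, which moves such ranks, and over the 353 rows listed on both the percentiles were 84.1 and 58.6. A rank depends on how bright each probe is as well as on the amount of miRNA, so it gives no order of different miRNAs.

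miR-181b-5p, made from the same 2 clusters as miR-181a-5p, was listed at 13.88 in spleen and at 4.72 in lamina propria. Its log2 ratio was -1.56, and 61 of the 353 shared rows had a lower one. Its percentile over the shared rows was 59.8 in spleen and 26.1 in lamina propria, and over all listed rows 71.9 and 31.0. The lamina propria value was 1.64 times the lowest listed value there, so a dim signal limited how large a difference could appear: a value at the lowest listed level would have given a 4.82-fold difference.

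miR-181c-5p, from the chromosome 8 cluster, was listed at 8.15 in spleen and at 4.18 in lamina propria. Its log2 ratio of -0.96 was just short of 2-fold, and 92 shared rows had a lower one. The percentiles were 44.5 in spleen and 19.8 in lamina propria over the shared rows, and 60.5 and 24.3 over all listed rows. Here the lowest listed lamina propria value would have given a 2.83-fold difference, and the observed value was 1.45 times that lowest value.

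miR-181d-5p, encoded beside miR-181c-5p, was listed at 9.26 in spleen, 6.66 times the lowest value there, and was blank in lamina propria. Provided that blanks stand for signal below anything listed on that array, it was at least 3.22-fold lower in lamina propria on the deposited scale. Of the 204 rows at least as bright in spleen as miR-181c-5p, the dimmest member, 8 were blank in lamina propria (3.92%). Between the spleen values of miR-181c-5p and miR-181d-5p, both included, there were 20 rows, and 2 of them, miR-181d-5p and 1 other, were blank. Of the 163 rows listed in spleen alone, 8.59% reached a bound of 2-fold, and 4.29%, miR-181d-5p itself and 6 brighter rows, reached its own bound.

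**Figure D1:**
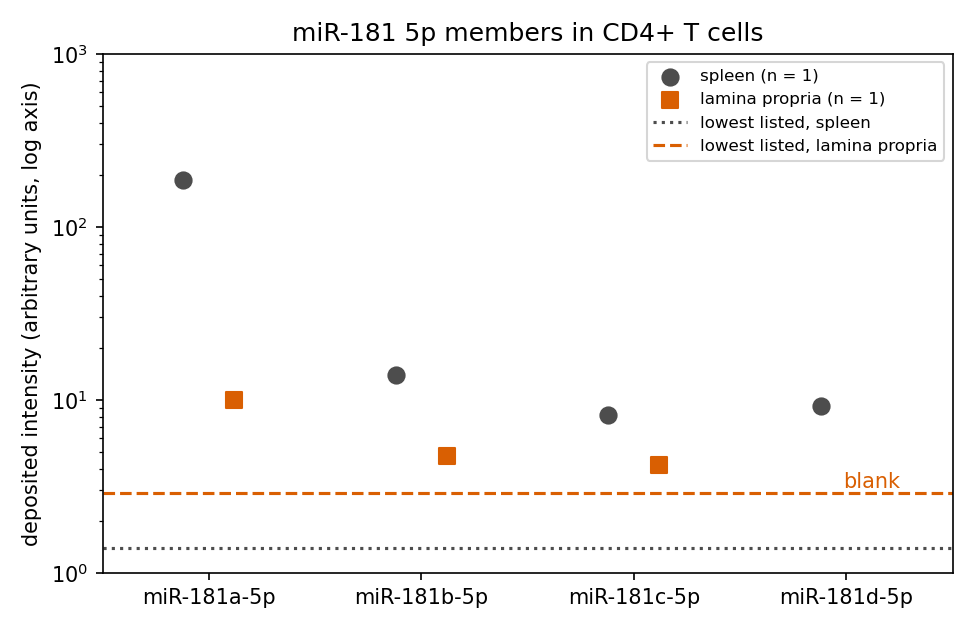
Deposited intensity (arbitrary units, log axis) of the 4 miR-181 5p members in spleen (circles) and lamina propria (squares) CD4+ T cells, 1 array each, with the lowest listed value of each array as a horizontal line. miR-181a-5p goes from 187.54 to 9.97, miR-181b-5p and miR-181c-5p come close to the lamina propria line at 2.88, and miR-181d-5p is blank in lamina propria.

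On the deposited scale the tissue ratios of the members were unequal, with 1 array per tissue and 2 of the 3 lamina propria values near the lowest one listed. The log2 ratio of miR-181a-5p lay 2.68 below that of miR-181b-5p, a 6.40-fold difference between their ratios, and 3.27 below that of miR-181c-5p. A single scaling factor between the arrays leaves these gaps as they are, but scalings that change with level narrowed the first to 1.90 (3.73-fold) after quantile normalization and to 2.10 (4.29-fold) with the trend removed. The ratios of miR-181b-5p and miR-181c-5p were 0.59 apart on the log2 scale, 1.51-fold. Had miR-181b-5p been lower by the same factor as miR-181a-5p, its lamina propria intensity would have been 0.738, and miR-181c-5p would have been at 0.433. Both values are under 2.88, the lowest value listed there, a level at which no row is listed. How much of a dim value is background cannot be read from the deposited values. With each array's lowest listed value subtracted, a setting added after the values were seen, the gap between miR-181a-5p and miR-181b-5p was 1.95 in place of 2.68 on the log2 scale.

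The summed intensity of the 3 members listed on both arrays came to 209.57 in spleen and fell 11.1-fold short of that, at 18.87, in lamina propria. It was 0.154% of all listed signal in spleen and 0.0103% in lamina propria. These shares depend heavily on the brightest row, the same on both arrays. That row alone gave 45486.9 of the 136232 listed in spleen and 92004.4 of the 182481 in lamina propria. The sum adds probes whose brightness per molecule may differ and mostly follows miR-181a-5p, which gave 89.5% of it in spleen and 52.8% in lamina propria. Without miR-181a-5p the sum came to 22.03 in spleen and to 8.90 in lamina propria, a 2.48-fold difference.

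**Figure D2:**
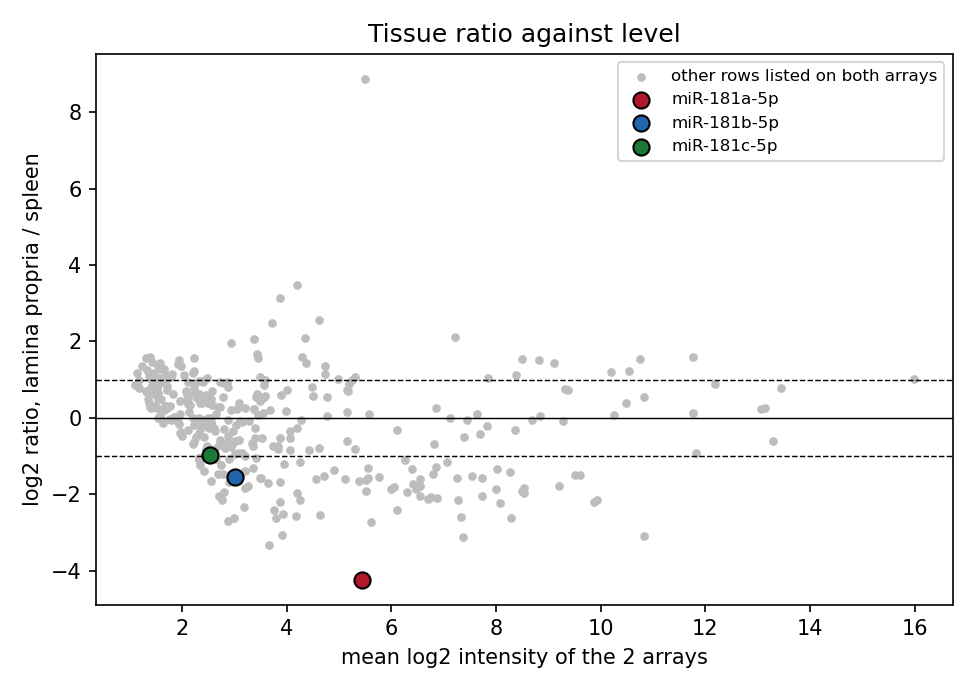
Log2 ratio of lamina propria to spleen intensity against the mean log2 intensity for the 353 rows listed on both arrays, with miR-181a-5p, miR-181b-5p and miR-181c-5p in colour and dashed lines at 2-fold. miR-181a-5p, at -4.23, is the lowest point of the plot, while the other 2 members lie within the spread of the grey rows.

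Shared rows at least as bright in spleen as miR-181c-5p, the dimmest member, were often lower in lamina propria. Each member was therefore also set beside rows of like spleen brightness. Of these 196 rows, 44.4% were lower in lamina propria by 2-fold or more and 9.69% higher, with a median log2 ratio of -0.80. The set reaches down to dim rows and does not describe the brightest ones alone. Choosing rows by their spleen value favours those that are lower elsewhere, which bears on the 196 rows and on the neighbours. The members were taken by identity, not by spleen value. The 5 rows nearest to miR-181a-5p had spleen intensities from 177.67 to 191.97 and lamina propria intensities from 46.14 to 204.50. Their log2 ratios ran from -2.04 to 0.091, and 3 of the 5 were at least 2-fold lower, but the lowest of them was 4.11-fold lower against 18.8-fold for miR-181a-5p.

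The picture differed for the dim members. The 5 rows nearest to miR-181b-5p in spleen had log2 ratios from -2.16 to -0.53, with 4 of the 5 at least 2-fold lower. Their median was -1.94, and the value of -1.56 for miR-181b-5p lay inside the range but was less low than this median. Those nearest to miR-181c-5p ran from -1.24 to 0.26, with a median of -0.72 and 1 of 5 at least 2-fold lower. The value of -0.96 for miR-181c-5p again lay inside the range, below that median. The 5 rows nearest to miR-181d-5p had ratios from -1.07 to 0.23; they were drawn from rows listed on both arrays, so they have no bearing on its blank. Thus miR-181b-5p and miR-181c-5p lay within the range of rows of their own brightness, and miR-181a-5p was lower than all 5 of its neighbours.

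**Figure D3:**
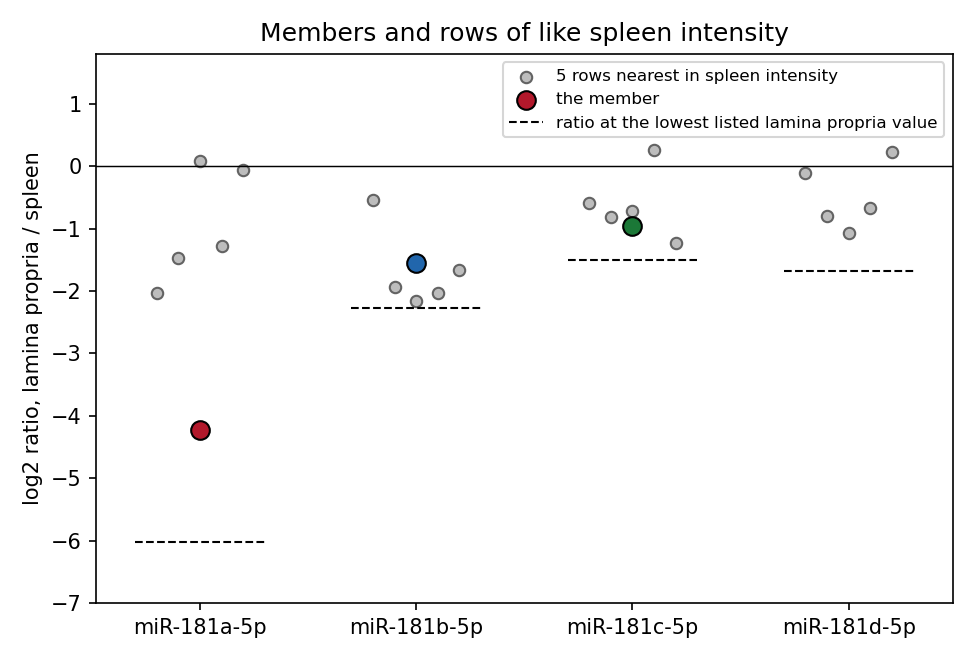
Log2 ratio of lamina propria to spleen for each member (coloured point) and for the 5 rows nearest to it in spleen intensity (grey points), with a dashed line at the ratio that the lowest listed lamina propria value would give. miR-181a-5p lies below its 5 neighbours (-2.04 to 0.091), miR-181b-5p and miR-181c-5p lie among theirs, and miR-181d-5p has no ratio of its own.

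Likeness of pattern, with only 2 arrays, can be no more than likeness of the tissue ratio. Of the brighter 50% of shared rows (177 by mean level), the 5 with ratios nearest to miR-181a-5p were 6.60-fold to 9.97-fold lower in lamina propria. They necessarily fell short of miR-181a-5p, which has the lowest ratio of all shared rows. The nearest of them with a single accession, MIMAT0000590, was listed at 487.49 in spleen and at 56.39 in lamina propria, 8.64-fold lower. The 5 nearest to miR-181b-5p were 2.89-fold to 2.97-fold lower, close to its own ratio by the way they were picked. The closest, MIMAT0000540, had 93.36 in spleen and 31.70 in lamina propria. This brighter set, whose only member was miR-181a-5p, had 41.2% of its rows lower by 2-fold or more and 15.3% higher. Over all 353 shared rows, 61 (17.3%) had a lower ratio than miR-181b-5p, and no row had a lower one than miR-181a-5p.

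The direction was lower in lamina propria for all 3 measured members in each of 10 settings: the deposited scale, 6 other scalings, 1 or 10 added before log2, and subtraction of each array's lowest value. The log2 ratio of miR-181a-5p ran from -4.71 to -3.31 and was past 2-fold in 10 of 10. It was the lowest ratio of all shared rows except when the lowest value was subtracted, where it ranked 8th. miR-181b-5p ran from -2.76 to -0.70 and was past 2-fold in 9 of 10, the exception being 10 added, at 1.62-fold. miR-181c-5p ran from -2.38 to -0.36 and was past 2-fold in 2 of 10, with the total signal set equal, at 2.61-fold, and with the lowest value subtracted, at 5.20-fold. With the total taken without the 10 brightest rows, miR-181c-5p was 1.51-fold lower. The subtraction took 2.88 from its lamina propria value of 4.18, so the 5.20-fold value rests on a small remainder. Relative to the median log2 ratio of all shared rows, which moved between -0.76 and 0.44 over these settings, miR-181a-5p ran from -4.24 to -3.25, miR-181b-5p stayed at or below -0.70 and miR-181c-5p ran from -1.62 to -0.36.

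**Figure D4:**
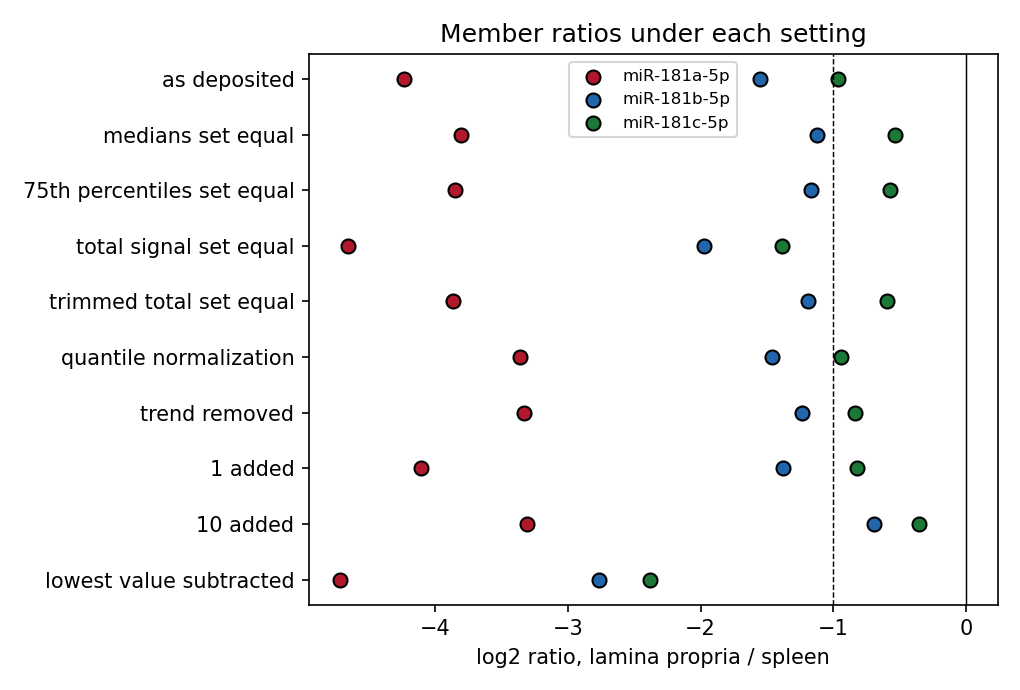
Log2 ratio of lamina propria to spleen of miR-181a-5p, miR-181b-5p and miR-181c-5p under each of 10 settings, with a dashed line at 2-fold lower. All points lie below 0, miR-181a-5p stays at or below -3.31, and miR-181c-5p crosses the 2-fold line in 2 settings.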

How the data were processed

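Total RNA of CD4+ T cells was labelled with the dye Hy5 using a miRCURY LNA labelling kit, per the labels' protocols, and 1 array was deposited per tissue. The authors deposited linear intensity values; how they subtracted background, set the detection rule and scaled the arrays is stated in no source used here, and the arrays' signal over background is unknown. Both value columns were used. Ratios were log2 of lamina propria over spleen intensity, with no scaling or pseudocount, over rows listed on both arrays; at least 2-fold counted as lower or higher. The members and lists were chosen with earlier results of these data known. The rows described were the 4 members, the 5 shared rows nearest to each in log2 spleen intensity, and the 5 in the upper 50% by mean level nearest in log2 ratio to miR-181a-5p and to miR-181b-5p. The member names come from the accessions that define the family; the reference tables named 0 rows, so other miR-181 arms and the lists of T cell and marker miRNAs could not be applied. Rows with several accessions (5) were kept as single rows. Alternatives were 6 scalings (medians, 75th percentiles, totals, totals without the 10 brightest rows, quantile, lowess with fraction 0.5), 1 or 10 added, and other filters; subtraction of the lowest value, the filter on spleen brightness and 2 other sums were added after the data were seen. Sequences are from RefSeq (GRCm38.p6), aligned with Biopython 1.88. Python 3.11.15, numpy 2.4.6, pandas 2.3.3 and statsmodels 0.14.6 were used, and the counting was tested on simulated data.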

Additional observations from a re-analysis of the deposited data

How the results depend on the processing

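In the order medians, 75th percentiles, total and trimmed total set equal, the log2 ratio of miR-181a-5p was -3.80, -3.85, -4.66 and -3.87, that of miR-181b-5p (also the median of the 3 members) -1.13, -1.17, -1.98 and -1.19, that of miR-181c-5p -0.53, -0.58, -1.38 and -0.60, and that of the sum -3.04, -3.09, -3.89 and -3.11. These settings add 1 constant to every ratio, and their changes follow from it. miR-181a-5p was at -4.10 with 1 added, -3.31 with 10 added, -3.36 after quantile normalization, -3.33 with the trend removed and -4.71 with the lowest value subtracted. miR-181b-5p was at -1.23 after trend removal, -1.38 with 1 added, -0.70 with 10 added and -2.76 with the lowest value subtracted, and miR-181c-5p at -0.83, -0.82, -0.36 and -2.38. The sum was -2.93 after quantile normalization. With 10 added once to the sum itself, not to each member, it was also -2.93. It was -2.85 with the trend removed, -4.33 with the lowest value subtracted and -1.31 without miR-181a-5p. With miR-181d-5p at the lowest listed lamina propria value it was -3.33. Rows at least 2-fold lower numbered 91 as deposited, 60 after trend removal, 154 with the lowest value subtracted and 30 at 4-fold. Rows at least 2-fold higher numbered 57 as deposited, 107, 101, 24 and 97 under the 4 single factors, 36 with 1 added, 18 with 10 added, 27 in the upper 50%, 8 at 4-fold and 19 among rows as bright in spleen as the dimmest member. The split of lower against higher rows thus turned to more higher than lower with medians (70 and 107), 75th percentiles (72 and 101) and the trimmed total (74 and 97) set equal. Spleen percentiles among shared rows were 84.1, 59.8 and 44.5 for miR-181a-5p to miR-181c-5p, and in lamina propria 58.6, 26.1 and 19.8. miR-181d-5p is not a shared row, and its spleen value stood above 49.6% of them. No ratio of a member changed sign. Beyond the constants, filters and sums, the cause of these changes was not tested. No paired analysis was possible because there is a single array on either side, which also leaves no replicate to omit. Dim values limit miR-181b-5p, miR-181c-5p and miR-181d-5p most.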
